A study of Mus musculus with 9 samples.

Results

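The proteasome genes of mouse male germ cells were followed through meiosis and spermatid differentiation at the RNA level. Members were all protein-coding gene entries of the deposited count table whose symbol begins with Psma, Psmb, Psmc, Psmd, Psme, Psmf or Psmg and a digit, leaving out Psmc3ip, which encodes a meiotic recombination factor. This symbol rule uses no measured value. It took 50 of 21405 protein-coding genes, among 50493 features in all, and 46 of the 50 had enough reads to be tested. The members were the 8 alpha and 7 beta subunit genes of the core, 4 alternative beta subunit genes, 6 ATPase and 3 other base genes, and 8 lid genes. They also included 5 activator genes, 1 inhibitor gene, 4 core and 3 base assembly chaperone genes, and Psme3ip1, which encodes a partner of the activator Psme3.

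RNA came from testis of wild-type (WT) mice, from pachytene spermatocytes (PAC, in meiotic prophase), round spermatids (RS, haploid and newly past meiosis) and elongating spermatids (ES, in which chromatin is compacted). Each cell type had 3 libraries of total RNA freed of ribosomal RNA, called biological replicates in the submitters' design text. The sources used here give no strain, age, method of cell isolation or number of animals per library, and no treatment or allele separated the groups. The p-values therefore measure the spread between these libraries.

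The proteasome is the protease that degrades ubiquitin-tagged proteins. Its barrel-shaped core is closed by rings of alpha subunits and cuts proteins in inner rings of beta subunits, while a regulatory cap binds ubiquitin, removes it with its lid and unfolds the substrate with the ATPases of its base. Testis is known for a germ cell form of the core in which Psma8 takes the place of its paralogue Psma7, and for a high level of the activator Psme4 (PA200), which has been linked to the removal of acetylated histones in spermatids. In immune cells, interferon-induced beta subunits and the activator pair Psme1 and Psme2 form the immunoproteasome.

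Total counts per library ran from 22910156 to 33801617, and ES replicate 1 stood apart, with a TMM scaling factor of 0.758 against 0.923 to 1.099 in the other 8 libraries. Levels below are CPM, counts scaled to library size after that factor, and fold changes are log2 values ± SE from a fit over all 26030 tested features, with a call at a Benjamini-Hochberg adjusted p below 0.05. Spermatocyte markers were highest in PAC (summed level 1305 to 1487 CPM, against 641 to 672 in RS and 490 to 602 in ES). Of these 6 genes 5 were lower in RS than PAC, but not Ccna1 (0.15, adjusted p = 0.321). Round spermatid markers summed to 580 to 718 CPM in PAC, 1790 to 2038 in RS and 909 to 1175 in ES. Of these 6 genes 5 were higher in RS than PAC, but not Acr (-0.06, adjusted p = 0.852). Protamine and other late spermatid markers summed to 1697 to 2484 CPM in PAC, 13530 to 15439 in RS and 33427 to 65530 in ES. In such bulk samples, fewer cells of a type and less RNA per cell cannot be told apart.

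From PAC to RS most of the proteasome genes were lower, and a small set that included an alpha subunit, a pair of activators and the inhibitor was higher. Of the 46 tested members, 31 (67.4%) were lower in RS and 5 (10.9%) higher, with a median log2 fold change of -0.66. Among all 14836 tested protein-coding genes 46.9% were lower and 26.3% higher, with a median of -0.46, and among all features 34.2% were lower and 38.2% higher, with a median of 0.11. The 5 higher members were Psma6, Psme3, Psmf1, Psmd10 and Psme4. By class, 7 of 8 alpha, 6 of 7 beta, 3 of 6 ATPase, all 3 other base and 5 of 8 lid genes were lower. When only protein-coding genes were scaled and tested, 20 members were lower, all of them among the 31. The members' median lay below that of protein-coding genes by 0.20 in the fit reported here, and by 0.13 to 0.48 under the 21 alternatives. It was 0.13 lower without PAC 1 and 0.29 lower without PAC 3.

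**Figure D1:**
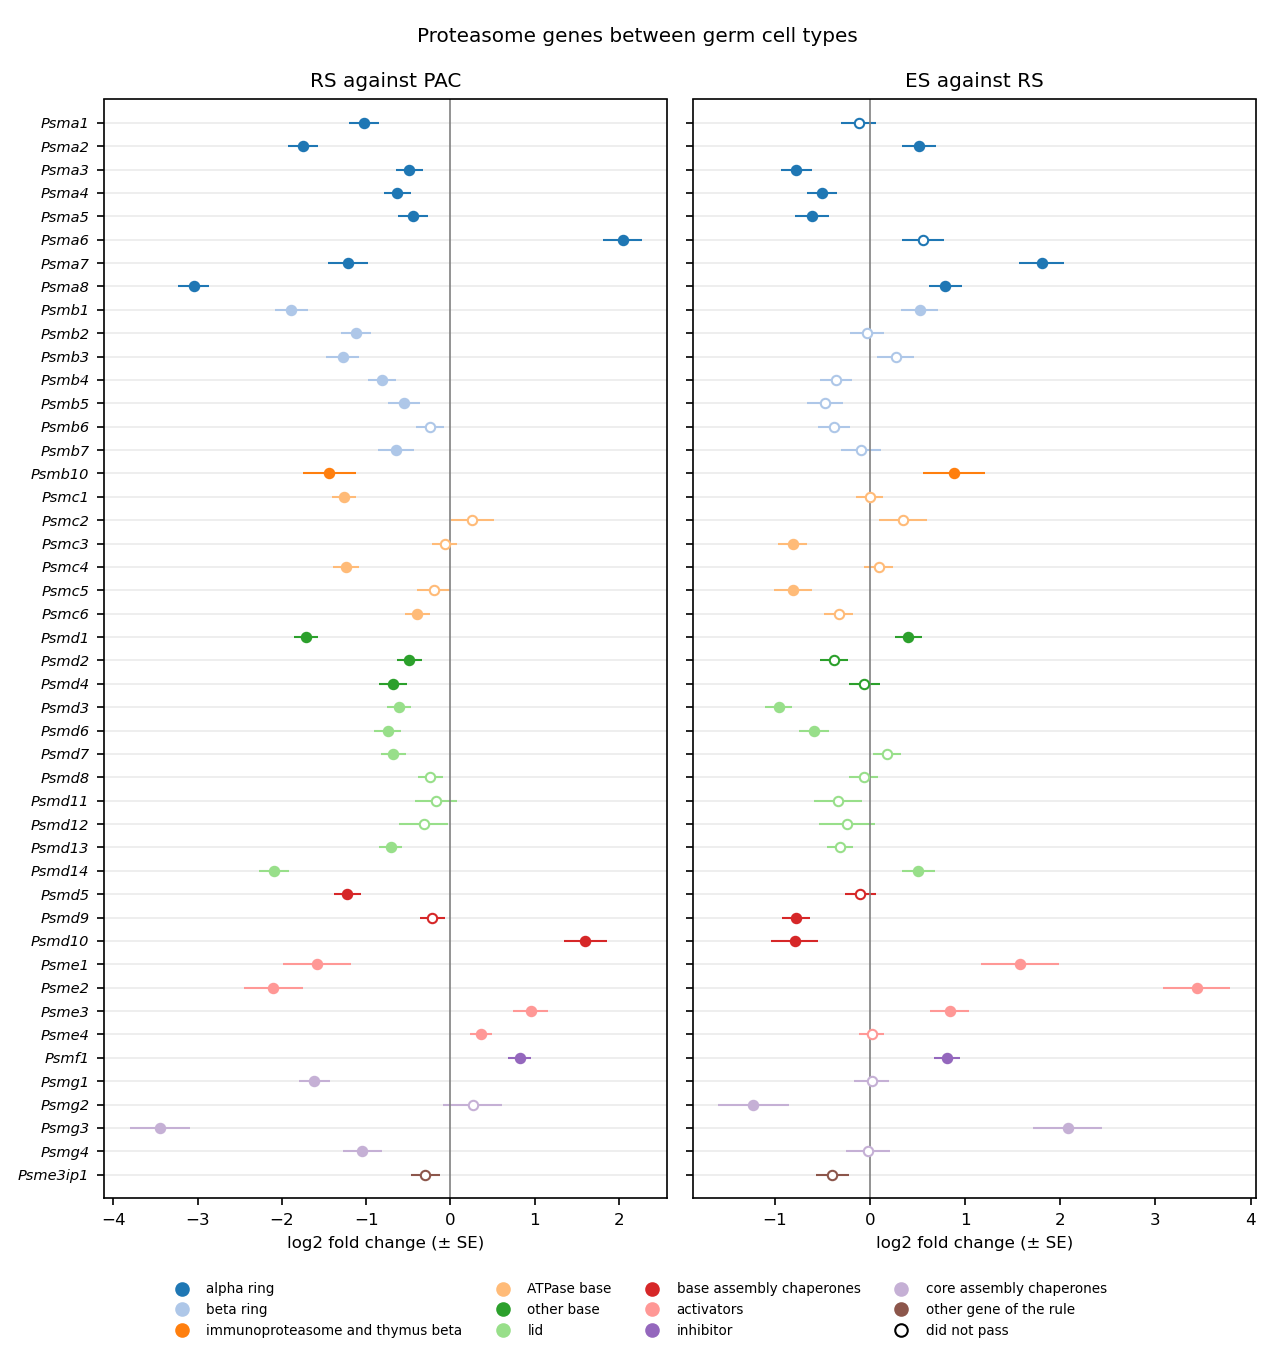
Log2 fold change with its SE for each of the 46 tested members, RS against PAC at the left and ES against RS at the right, coloured by class. Filled points passed an adjusted p of 0.05 and open points did not; most filled points lie left of 0 in the left panel, and they lie on both sides of 0 in the right panel.

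From RS to ES the members did not move in a single direction. Of 46, 12 (26.1%) were higher in ES and 10 (21.7%) lower, with a median of -0.06, where 31.8% of protein-coding genes were higher and 21.7% lower, with a median of 0.18. Over all features 24.5% were higher and 22.1% lower, with a median of 0.05. The split changed with the setting: total counts alone gave 6 higher and 18 lower, FPKM values 5 and 18, protein-coding genes alone 8 and 17, no filter 7 and 11, upper-quartile factors 11 and 11, and RLE factors 13 and 8. With PAC 2, RS 1, RS 2 or ES 2 left out, 7 were higher. Total counts moved the median of all features from 0.05 to -0.28, and the members' median lay below that of protein-coding genes by 0.16 (without ES 3) to 0.34 under the 21 alternatives. The higher calls of Psma7, Psme2, Psmf1 and Psmg3 and 6 of the 10 lower calls were kept under all 21 alternatives. That of Psme1 was kept under the 20 in which it was tested.

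Across the whole interval from PAC to ES, 33 members (71.7%) were lower and 7 (15.2%) higher, with a median of -0.99. Over protein-coding genes 42.6% were lower and 25.2% higher, with a median of -0.385. Over all features 33.7% were lower and 30.6% higher, with a median of -0.09. The 7 higher members were Psma6, Psma7, Psmd10, Psme2, Psme3, Psme4 and Psmf1, of which Psma6, Psme2, Psme3 and Psmf1 were higher under every alternative. Summed over all 50 members, proteasome genes took 0.622% ± 0.0487 of the reads of PAC libraries, 0.590% ± 0.00913 for RS and 0.454% ± 0.0299 for ES (SD, n = 3). The 3 comparisons share their libraries and are not independent of each other.

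The alpha ring held the member furthest below and the member furthest above no change among the core subunits from PAC to RS. Psma8, the germ cell alpha subunit gene on chromosome 18, was at 355, 298 and 238 CPM in the 3 PAC libraries, 34.6, 36.01 and 37.1 CPM in RS and 55.4, 74.8 and 56.6 CPM in ES. All PAC libraries lay far above the others, the RS libraries were within a narrow range, and no groups overlapped. The log2 fold change was -3.05 ± 0.18 from PAC to RS (adjusted p = 1.98e-07) and 0.79 ± 0.17 from RS to ES (adjusted p = 0.00273). The later difference did not pass with total counts (adjusted p = 0.0616) or with FPKM values (adjusted p 0.0821 to 0.121).

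Psma7 (ncbi_26444, chr2:180036367-180042464), which encodes the alpha subunit of somatic proteasomes, was at 21.2, 16.5 and 10.8 CPM in PAC, 6.11, 8.18 and 6.59 CPM in RS and 26.2, 26.04 and 20.8 CPM in ES. RS was the lowest group without overlap, while 1 PAC library reached the level of the lowest ES library. The change was -1.21 ± 0.24 from PAC to RS (adjusted p = 0.000744) and 1.81 ± 0.24 from RS to ES (adjusted p = 0.000109), and both were called under every alternative. ES against PAC was 0.59 ± 0.23 (adjusted p = 0.0414), a call that was lost when PAC 2, PAC 3, RS 1, RS 2, RS 3, ES 1 or ES 2 was left out (adjusted p from 0.0543 to 0.142) and with total counts or FPKM values (adjusted p 0.177 to 0.277, log2 change 0.30 to 0.37).

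Between these paralogues the balance moved from Psma8 towards Psma7. On the per-length scale of the deposited FPKM values (fragments scaled by transcript length and library size), Psma8 made up 90.5, 91.1 and 92.6% of the sum of both genes in the PAC libraries, 76.1, 71.3 and 75.98% in those of RS and 54.4, 61.8 and 60.4% in those of ES. Mean shares were 91.4 ± 1.099%, 74.5 ± 2.73% and 58.8 ± 3.95% (SD, n = 3), and the 3 cell types did not overlap. Each of the 3 pairwise differences had an exact two-sided permutation p of 0.1, the smallest that 3 against 3 libraries allow, and 0.1875 after adjustment over 15 share comparisons, so none could pass. The sources used here do not say how reads shared by these related genes were counted.

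**Figure D2:**
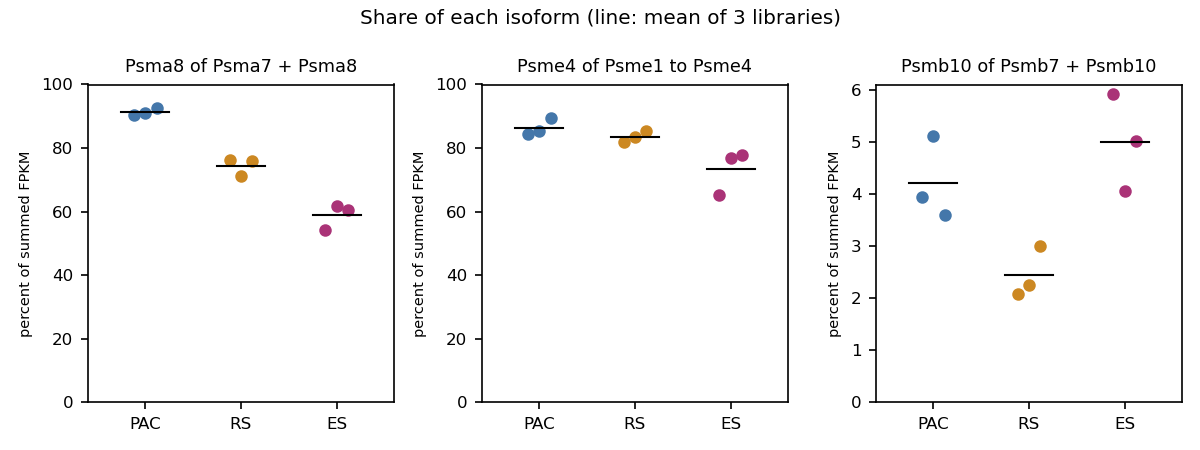
Share of Psma8 among Psma7 and Psma8, of Psme4 among Psme1 to Psme4 and of Psmb10 among Psmb7 and Psmb10, in percent of summed FPKM, for each library (points) with the mean (line). The Psma8 share stepped down from above 90% in PAC to 54.4% to 61.8% in ES, and the axis of the Psmb10 panel ends near 6%.

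Psma6 (ncbi_26443, chr12:55384222-55418459), another alpha subunit gene, went the opposite way to its ring. Its levels were 164, 186 and 154 CPM in PAC, 613, 728 and 742 CPM in RS and 1409.6, 973 and 682 CPM in ES. Every RS library lay more than 3 times above every PAC library, and ES spread widely, with its highest value in ES replicate 1, the library that stood apart. The change was 2.04 ± 0.23 from PAC to RS (adjusted p = 1.39e-05), called under every alternative, and 0.56 ± 0.22 from RS to ES (adjusted p = 0.0567), which did not pass. In FPKM, Psma6 was 1.76, 2.38 and 2.74 times the median of Psma1 to Psma5 in the PAC libraries, 22.2, 22.9 and 24.8 times in RS and 44.4, 28.2 and 23.1 times in ES. The span of the gene also holds an annotated processed pseudogene of a ribosomal protein gene on the opposite strand. The sources used here do not say whether the counting used strand.

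The other 5 alpha genes, Psma1 to Psma5, were lower in RS than PAC, with log2 changes from -0.44 (Psma5) to -1.75 (Psma2). From RS to ES they parted. Psma3 fell further, from 141, 148 and 149 CPM in RS to 83.5, 99.3 and 73.5 CPM in ES, a log2 change of -0.77 ± 0.17 (adjusted p = 0.00263), after 245, 205 and 164 CPM in PAC. Its PAC to RS change was smaller, -0.49 ± 0.16 (adjusted p = 0.0193), and that call was lost when PAC 1, RS 1, RS 2 or RS 3 was left out (adjusted p from 0.0518 to 0.0792) and with upper-quartile factors, protein-coding genes alone or FPKM values (adjusted p 0.0579 to 0.624, log2 change -0.09 to -0.41). Psma4 and Psma5 were lower in ES than RS as well (-0.51 and -0.61), while Psma2 was higher (0.51 ± 0.18, adjusted p = 0.0327). The Psma2 call was lost when PAC 2, RS 1, RS 2, RS 3, ES 1 or ES 2 was left out (adjusted p from 0.0508 to 0.129) and with total counts, no filter, protein-coding genes alone or FPKM values (adjusted p 0.0592 to 0.524, log2 change 0.17 to 0.47). The Psma4 call from RS to ES was lost when RS 1, RS 2, ES 2 or ES 3 was left out (adjusted p from 0.0531 to 0.0696) and with RLE factors or DESeq2 (adjusted p 0.101 to 0.102, log2 change -0.36 to -0.38). The Psma5 call at that step was lost when RS 2 or ES 3 was left out (adjusted p from 0.05402 to 0.0619) and with RLE factors or DESeq2 (adjusted p 0.0537 to 0.0586, log2 change -0.47 to -0.48). From PAC to RS, the Psma5 call was lost when PAC 1, PAC 2, RS 1, RS 2 or RS 3 was left out (adjusted p from 0.07698 to 0.184) and with upper-quartile factors, total counts, no filter, a minimum count of 50, protein-coding genes alone or FPKM values (adjusted p 0.06195 to 0.806, log2 change -0.05 to -0.43).

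**Figure D3:**
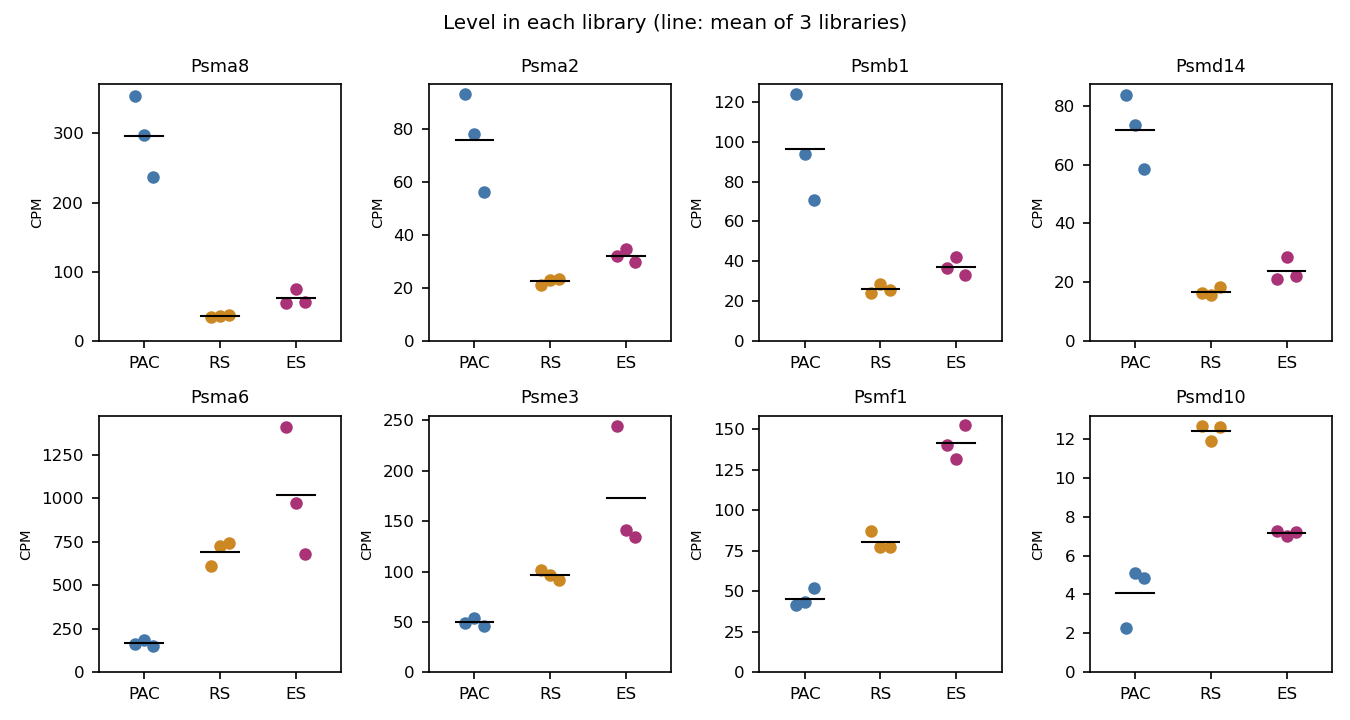
CPM of 8 members in each library (points) with the mean of 3 libraries (line), each panel on its own linear axis from 0. The upper row shows genes that were highest in PAC, and the lower row genes that were higher in RS than in PAC, among which only Psmd10 was lower again in ES.

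The beta ring carries the cutting sites, and 6 of its 7 genes were lower in RS than PAC. Psmb1, a structural beta subunit gene, showed the largest fall, from 124, 93.9 and 70.7 CPM in PAC to 23.9, 28.5 and 25.5 CPM in RS, and stood at 36.6, 42.2 and 33.1 CPM in ES. PAC was above both spermatid types with no overlap. Its log2 change was -1.89 ± 0.20 from PAC to RS (adjusted p = 8.27e-06) and 0.52 ± 0.19 from RS to ES (adjusted p = 0.0439), and the latter call was lost when PAC 2, RS 1, RS 2, RS 3, ES 1 or ES 2 was left out (adjusted p from 0.0646 to 0.155) and with upper-quartile factors, total counts, no filter, protein-coding genes alone or FPKM values (adjusted p 0.0552 to 0.544, log2 change 0.18 to 0.52). Psmb2, Psmb3 and Psmb4 were lower in RS, with changes of -1.12, -1.27 and -0.81, and did not pass from RS to ES.

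From PAC to RS the 3 catalytic subunit genes had smaller changes than the other 4 genes of the ring. Psmb5 (ncbi_19173, chr14:54614120-54617995), the chymotrypsin-like subunit, was at 101, 81.2 and 60.01 CPM in PAC, 53.6, 56.1 and 56.1 CPM in RS and 35.4, 48.5 and 35.6 CPM in ES. Its change from PAC to RS was -0.55 ± 0.19 (adjusted p = 0.02297), lost when PAC 1, PAC 2, RS 1, RS 2 or RS 3 was left out (adjusted p from 0.0562 to 0.105) and with upper-quartile factors, total counts, protein-coding genes alone or FPKM values (adjusted p 0.0529 to 0.467, log2 change -0.15 to -0.50). Its change from RS to ES was -0.47 ± 0.19 (adjusted p = 0.0633). All PAC libraries still lay above all RS libraries, and all RS libraries above all ES libraries.

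Psmb6 (ncbi_19175, chr11:70525324-70527858), the caspase-like subunit, was at 71.4, 69.7 and 73.98 CPM in PAC, 57.7, 62.2 and 62.1 CPM in RS and 35.04, 47.1 and 57.9 CPM in ES. Neither step passed, with -0.24 ± 0.17 from PAC to RS (adjusted p = 0.209) and -0.38 ± 0.17 from RS to ES (adjusted p = 0.0839), whereas ES against PAC did (-0.62 ± 0.17, adjusted p = 0.00673). The Psmb6 call in ES against PAC was lost with upper-quartile scaling and in a fit of both cell types alone (adjusted p 0.0968 to 0.103). Psmb6 was the only beta ring gene that did not pass from PAC to RS.

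Psmb7 (ncbi_19177, chr2:38588046-38643952), the trypsin-like subunit, was at 25.2, 25.7 and 27.3 CPM in PAC, 18.2, 15.8 and 16.1 CPM in RS and 9.99, 19.4 and 17.4 CPM in ES. It was lower in RS (-0.64 ± 0.21, adjusted p = 0.0167), a call that was lost when RS 2 or RS 3 was left out (adjusted p from 0.0569 to 0.0641) and with upper-quartile factors, total counts, protein-coding genes alone or FPKM plus 0.1 without a filter (adjusted p 0.0531 to 0.243, log2 change -0.25 to -0.62). ES did not differ detectably from RS (-0.09 ± 0.21, adjusted p = 0.744). PAC lay above RS in every library, and the ES libraries spread over the RS range.

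Genes of the immunoproteasome and thymoproteasome beta subunits were scarce throughout. Psmb8, the alternative to Psmb5, had read counts of 1, 2 and 1 in the PAC libraries, 1, 3 and 4 in RS and 5, 2 and 3 in ES. Psmb9, the alternative to Psmb6, had read counts of 1, 0 and 0 in the PAC libraries, 1, 0 and 0 in RS and 0, 0 and 3 in ES. Psmb11, the beta subunit of thymic epithelium, had 0, 2 and 0, 0, 1 and 1 and 0, 0 and 0 counts in the same order. All 3 failed the filter on low counts, so no fold change was computed, and a floor of 3 counts corresponded to 0.0818 to 0.162 CPM.

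Psmb10 (ncbi_19171, chr8:105935728-105938392), the alternative to Psmb7, was the only immunoproteasome subunit gene with enough counts. It was at 1.52, 1.899 and 1.44 CPM in PAC, 0.542, 0.518 and 0.729 CPM in RS and 0.918, 1.11 and 1.28 CPM in ES, and RS lay below the other groups with no overlap. The change from PAC to RS was -1.43 ± 0.31 (adjusted p = 0.00163). From RS to ES it was 0.88 ± 0.32 (adjusted p = 0.0416), lost when PAC 1, PAC 2, PAC 3, RS 1, RS 2, ES 2 or ES 3 was left out (adjusted p from 0.0501 to 0.147) and with total counts, no filter or FPKM values (adjusted p 0.106 to 0.198, log2 change 0.23 to 0.84). In FPKM, Psmb10 made up 4.22 ± 0.792% of the sum of Psmb7 and Psmb10 in PAC, 2.45 ± 0.497% in RS and 4.99 ± 0.929% in ES (SD, n = 3). RS was below both others in all libraries, with an exact permutation p of 0.1 and an adjusted p of 0.1875 for each of those contrasts. Psmb8 made up 0.0428 ± 0.0208%, 0.0973 ± 0.0543% and 0.317 ± 0.207% of the sum with Psmb5, with every ES library above every PAC library (exact permutation p = 0.1, adjusted 0.1875). This share rests on 1 to 5 Psmb8 counts in a library. PAC 2 and ES 2 each had 2 Psmb8 counts, while Psmb5 was at 101 FPKM in PAC 2 and 51.6 FPKM in ES 2. Psmb9 made up 0.0189 ± 0.0327%, 0.0223 ± 0.0386% and 0.104 ± 0.181% of the sum with Psmb6, with an exact permutation p of 1.0 in each contrast.

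The base of the regulatory cap unfolds substrates with a ring of 6 ATPases, whose genes did not move together. Psmc1 fell the most, from 68.5, 62.0 and 56.99 CPM in PAC to 25.8, 26.8 and 25.7 CPM in RS, and stayed at 24.1, 30.4 and 23.6 CPM in ES. Its change from PAC to RS was -1.26 ± 0.14 (adjusted p = 1.54e-05), and its RS to ES difference was -0.00 ± 0.14 (adjusted p = 0.992). Psmc4 fell by a like amount (log2 change -1.24 ± 0.15, adjusted p = 2.59e-05). Psmc6 was lower (-0.39 ± 0.15, adjusted p = 0.03695), a call lost when PAC 1, PAC 2, RS 1 or RS 3 was left out (adjusted p from 0.0919 to 0.157) and with upper-quartile factors, total counts, no filter, a minimum count of 50, protein-coding genes alone or FPKM values (adjusted p 0.0717 to 0.99, log2 change -0.37 to 0.0023). With protein-coding genes alone the Psmc6 change was 0.0023 (adjusted p = 0.99001). Psmc2, Psmc3 and Psmc5 did not pass from PAC to RS, at 0.26, -0.07 and -0.20.

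Psmc3 (ncbi_19182, chr2:91054016-91059438) stood out among the ATPase genes by its level. It was at 1256, 1034 and 902 CPM in PAC, 1042, 1029 and 977 CPM in RS and 635, 607 and 495 CPM in ES. PAC and RS overlapped, and all ES libraries were lower (-0.81 ± 0.15 against RS, adjusted p = 0.00112). Per length, its FPKM was 21.4, 17.9 and 18.01 times the median of the other 5 ATPase genes in the PAC libraries, 37.1, 35.3 and 34.9 times in RS and 24.3, 18.3 and 18.9 times in ES. Psmc5 was the ATPase gene with the lowest FPKM in each cell type and was also lower in ES than RS (-0.81 ± 0.20, adjusted p = 0.00625).

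Among the non-ATPase base genes, Psmd1, a large scaffold subunit, was at 87.4, 78.2 and 83.4 CPM in PAC, 24.95, 25.9 and 25.2 CPM in RS and 28.6, 33.5 and 38.6 CPM in ES. The groups did not overlap, with RS the lowest. The change was -1.71 ± 0.14 from PAC to RS (adjusted p = 1.61e-06) and 0.41 ± 0.14 from RS to ES (adjusted p = 0.0316), the latter lost when PAC 2, RS 1, RS 2, RS 3, ES 2 or ES 3 was left out (adjusted p from 0.0588 to 0.143) and with total counts, no filter, protein-coding genes alone or FPKM values (adjusted p 0.0855 to 0.842, log2 change 0.06 to 0.36). Psmd2, which docks ubiquitin shuttle factors, and Psmd4, a ubiquitin receptor, were lower in RS (-0.49 and -0.68), calls that were lost with upper-quartile scaling and with protein-coding genes alone (adjusted p 0.276 to 0.525 and 0.08004 to 0.161). The Psmd2 call was also lost with FPKM values (adjusted p 0.0607 to 0.0929). Neither differed from RS to ES beyond the threshold (adjusted p = 0.0515 and 0.789).

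In the lid, Psmd14 (ncbi_59029, chr2:61711694-61800376), the enzyme that removes ubiquitin chains from substrates, had the largest fall. It was at 83.8, 73.4 and 58.4 CPM in PAC, 16.3, 15.7 and 18.5 CPM in RS and 20.9, 28.6 and 22.2 CPM in ES, so that every PAC library was above every spermatid library. The change from PAC to RS was -2.10 ± 0.18 (adjusted p = 2.02e-06). The rise from RS to ES was 0.51 ± 0.17 (adjusted p = 0.0319), lost when PAC 2, RS 1, RS 2, RS 3 or ES 2 was left out (adjusted p from 0.0503 to 0.139) and with total counts, no filter, protein-coding genes alone or FPKM values (adjusted p 0.0619 to 0.593, log2 change 0.16 to 0.47). Psmd14 was the only lid gene called higher in ES than RS.

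Psmd3, a structural lid subunit gene, fell at both steps. It went from 75.1, 69.3 and 56.3 CPM in PAC to 44.2, 45.2 and 42.2 CPM in RS and 21.4, 24.8 and 21.5 CPM in ES, with no overlap between groups. The changes were -0.61 ± 0.14 (adjusted p = 0.00248) and -0.96 ± 0.14 (adjusted p = 0.000264), and the first was lost with upper-quartile scaling and with protein-coding genes alone (adjusted p 0.086 to 0.164). Psmd6, Psmd7 and Psmd13 were lower in RS (-0.74, -0.67 and -0.71), the first 2 not with protein-coding genes alone (adjusted p 0.0596 and 0.0856), and Psmd6 was lower again in ES (-0.59). Psmd8, Psmd11 and Psmd12 passed in no comparison of the fit reported here, with changes from PAC to ES of -0.30, -0.50 and -0.56.

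Subunits that sit in the same complex differed widely in RNA level. In mean FPKM, the alpha ring ran from 17.7 (Psma7) to 187 (Psma6) in PAC, from 7.97 (Psma7) to 808 (Psma6) in RS and from 16.5 (Psma1) to 927 (Psma6) in ES. The beta ring ran from 30.1 (Psmb7) to 216 (Psmb4) in PAC and from 12.9 (Psmb2) to 79.5 (Psmb4) in ES. It was more even than the alpha ring in ES. In PAC the low end of the alpha ring was Psma7, whose alternative Psma8 was at 184, and the next lowest alpha gene was Psma1 at 43.6. Psmd8 had the highest lid FPKM, at 405 ± 49.9 in PAC, 358 ± 18.99 in RS and 269.8 ± 15.3 in ES (SD, n = 3). It was 12.8, 12.1 and 12.96 times the median of the other 7 lid genes in the PAC libraries and 21.2, 24.8 and 25.9 times in RS. The median FPKM of the alpha ring went from 111 in PAC to 30.4 in RS, that of the beta ring from 95.2 to 41.0, and that of the lid from 33.1 to 18.2.

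**Figure D4:**
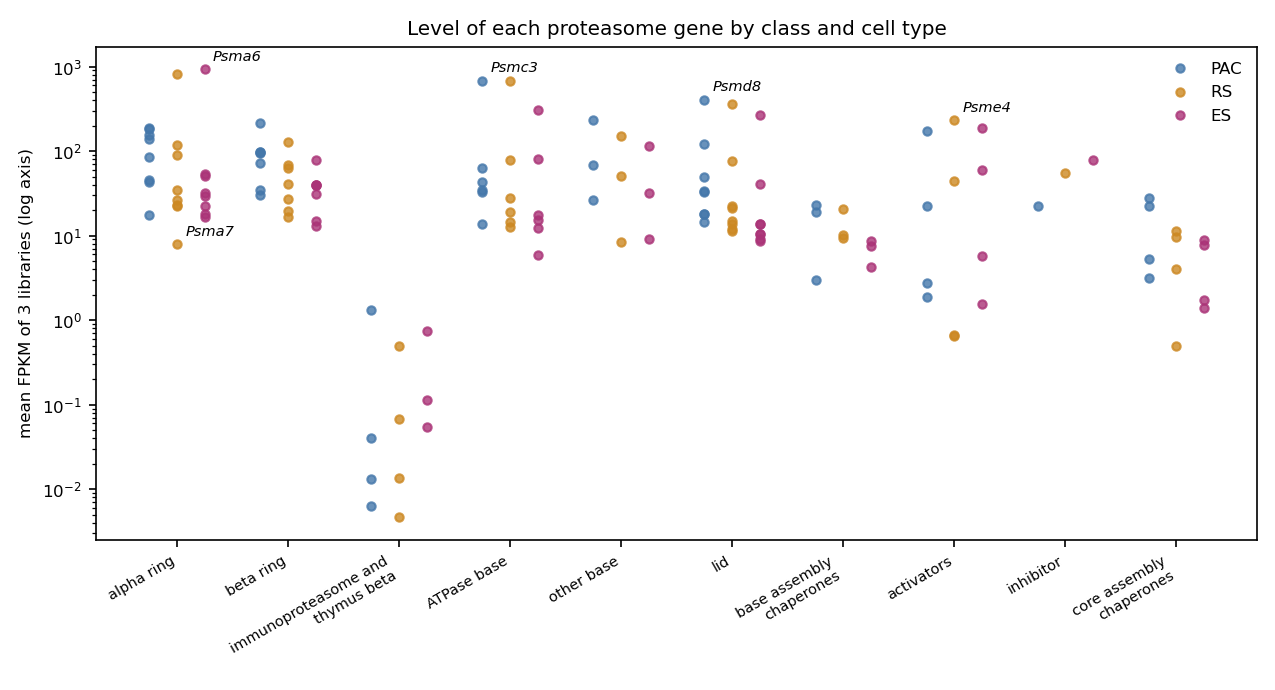
Mean FPKM of 3 libraries for each member (points), by class and cell type, on a log axis; members at 0 are not drawn, nor is Psme3ip1. Psma6 in the alpha ring, Psmc3 in the ATPase base, Psmd8 in the lid and Psme4 among the activators lie at the top of their classes, and the immunoproteasome and thymus beta genes lie near or below 1.

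The activators open the core, and they divided between spermatid-high and RS-low genes. Psme4 (ncbi_103554, chr11:30771775-30881150), the large nuclear activator, was at 956, 1039 and 1204 CPM in PAC, 1290.3, 1363 and 1477 CPM in RS and 1302, 1425 and 1461 CPM in ES. All RS libraries lay above all PAC libraries, and RS and ES overlapped. The change was 0.37 ± 0.13 from PAC to RS (adjusted p = 0.0235), lost when PAC 1, PAC 2, RS 2 or RS 3 was left out (adjusted p from 0.0586 to 0.0908), and 0.02 ± 0.13 from RS to ES (adjusted p = 0.913). With protein-coding genes alone the former was 0.76 ± 0.14. ES against PAC was 0.39 ± 0.13 (adjusted p = 0.0204), lost when PAC 1, PAC 2, ES 2 or ES 3 was left out (adjusted p from 0.0523 to 0.0805), and also lost with total counts (adjusted p = 0.5503) and FPKM values (adjusted p 0.518 to 0.567). Of the summed FPKM of Psme1 to Psme4, Psme4 held 84.5, 85.3 and 89.3% in the PAC libraries, 81.8, 83.6 and 85.4% in RS and 65.2, 76.97 and 77.8% in those of ES. The ES shares lay below all others (exact permutation p = 0.1, adjusted 0.1875, against RS and against PAC).

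Psme3 (ncbi_19192, chr11:101316213-101323537), a nuclear activator known for degradation that needs no ubiquitin, was at 49.1, 54.4 and 46.1 CPM in PAC, 102, 96.7 and 91.8 CPM in RS and 244, 142 and 134 CPM in ES. The groups did not overlap and increased in that order, with ES replicate 1 far above the other ES libraries. The changes were 0.96 ± 0.21 (adjusted p = 0.00153) and 0.84 ± 0.21 (adjusted p = 0.00591). The second was lost with FPKM values (adjusted p 0.0508 to 0.0775) and kept at a smaller size when ES replicate 1 was left out (0.51 ± 0.12, adjusted p = 0.00606) and with total counts (0.47 ± 0.17, adjusted p = 0.0393). Psme3ip1, the gene of a Psme3 partner, was at 77.2, 57.3 and 53.7 CPM in PAC, 49.8, 52.1 and 51.3 CPM in RS and 46.1, 37.98 and 32.6 CPM in ES, and passed only in ES against PAC (-0.69 ± 0.17, adjusted p = 0.00406), a call lost with upper-quartile factors, a fit of the 2 cell types alone or protein-coding genes alone (adjusted p 0.0527 to 0.0911, log2 change -0.39 to -0.50).

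Psme1 and Psme2 form the interferon-induced activator and lie close together on chromosome 14. Psme1 (ncbi_19186, chr14:55578494-55581527) was at 2.21, 1.86 and 1.19 CPM in PAC, 0.903, 0.3001 and 0.554 CPM in RS and 1.998, 1.51 and 1.75 CPM in ES, and Psme2 (ncbi_19188, chr14:55587440-55591101) was at 3.64, 1.94 and 1.58, 0.452, 0.709 and 0.496 and 6.695, 6.3 and 5.11 CPM. For both genes RS was the lowest group with no overlap, and for Psme2 ES also lay above every PAC library. Psme1 changed by -1.58 ± 0.40 from PAC to RS (adjusted p = 0.00429) and by 1.58 ± 0.41 from RS to ES (adjusted p = 0.00819). Psme2 changed by -2.10 ± 0.35 (adjusted p = 0.000252) and 3.43 ± 0.35 (adjusted p = 2.11e-05), the latter being the largest rise of any member from RS to ES. These calls were kept under every alternative in which the gene was tested. Psme2b, a gene closely related to Psme2, had 0 counts in all 9 libraries.

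Psmf1 (ncbi_228769, chr2:151716062-151744199), which encodes a proteasome inhibitor that binds the core, rose at each step. It was at 41.7, 43.2 and 51.8 CPM in PAC, 87.2, 77.1 and 77.2 CPM in RS and 140.0, 131 and 153 CPM in ES, with no overlap between groups. The log2 change was 0.82 ± 0.13 from PAC to RS (adjusted p = 0.000217) and 0.81 ± 0.13 from RS to ES (adjusted p = 0.000493). Both calls were kept under all 21 alternatives, as was ES against PAC (1.63 ± 0.14, adjusted p = 1.95e-06). Their sizes moved: the first was 1.31 with FPKM plus 0.1, and the second 0.48 with total counts.

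The chaperones that assemble the core alpha ring were low and mostly fell. Psmg1 was at 31.5, 26.8 and 20.6 CPM in PAC, 8.91, 8.48 and 8.34 CPM in RS and 8.21, 9.98 and 7.89 CPM in ES, a change of -1.61 ± 0.18 from PAC to RS (adjusted p = 1.47e-05) and 0.02 ± 0.18 from RS to ES (adjusted p = 0.939). Its partner Psmg2 was at 2.67, 3.03 and 3.96 CPM, 4.46, 3.55 and 3.62 CPM and 0.648, 1.82 and 2.46 CPM, with PAC and RS overlapping and ES the lowest. Psmg2 did not pass from PAC to RS (0.27 ± 0.35, adjusted p = 0.502). It was lower in ES than RS (-1.22 ± 0.37, adjusted p = 0.01795), a call lost when RS 1 was left out (adjusted p = 0.0607), and lower in ES than PAC (-0.96 ± 0.37, adjusted p = 0.0406), a call lost when PAC 2, PAC 3, RS 1, RS 2, RS 3, ES 1 or ES 2 was left out (adjusted p from 0.0535 to 0.113) and with upper-quartile factors, a minimum count of 50, a fit of the 2 cell types alone or protein-coding genes alone (adjusted p 0.0593 to 0.139, log2 change -0.66 to -0.86). The genes of this chaperone pair thus differed in both level and pattern.

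The other core chaperone pair is Psmg3 and Psmg4. Psmg3 (ncbi_66506, chr5:139823613-139826894) was at 5.904, 3.94 and 3.17 CPM in PAC, 0.391, 0.355 and 0.438 CPM in RS and 1.19, 2.35 and 1.47 CPM in ES, so that each group was separate and RS was lowest. Its change from PAC to RS, -3.45 ± 0.36 (adjusted p = 7.88e-06), was the largest fall of any member. From RS to ES it rose by 2.08 ± 0.37 (adjusted p = 0.000773). Psmg4 was at 14.3, 9.602 and 8.71 CPM in PAC, 4.997, 5.48 and 5.37 CPM in RS and 6.53, 4.92 and 4.21 CPM in ES, lower in RS (-1.04 ± 0.23, adjusted p = 0.00177) and without a further call from RS to ES (-0.02 ± 0.24, adjusted p = 0.954). With protein-coding genes alone the Psmg4 change from PAC to RS was -0.65 (adjusted p = 0.0248).

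The 3 base assembly chaperone genes each had a different course. Psmd10 (ncbi_53380, chrX:140948425-140956711), which encodes gankyrin and was the only member on the X chromosome, was at 2.299, 5.11 and 4.82 CPM in PAC, 12.6, 11.9 and 12.6 CPM in RS and 7.24, 7.01 and 7.19 CPM in ES. RS was highest, PAC lowest, and no groups overlapped. The change was 1.60 ± 0.26 from PAC to RS (adjusted p = 0.000184) and -0.79 ± 0.25 from RS to ES (adjusted p = 0.0222), the latter lost when RS 1, RS 3 or ES 2 was left out (adjusted p from 0.0597 to 0.0635). Psmd5 was at 51.2, 45.2 and 35.9 CPM in PAC, 17.2, 20.6 and 18.96 CPM in RS and 17.3, 19.5 and 16.2 CPM in ES, a change of -1.22 ± 0.16 from PAC to RS (adjusted p = 5e-05) and -0.10 ± 0.16 from RS to ES (adjusted p = 0.6504). Psmd9 was at 52.2, 43.9 and 39.2 CPM, 39.04, 39.8 and 37.96 CPM and 23.4, 24.7 and 20.2 CPM. It did not pass from PAC to RS (-0.21 ± 0.15, adjusted p = 0.204) and was lower in ES in every library (-0.77 ± 0.15 against RS, adjusted p = 0.00127, and -1.25 with FPKM plus 0.1).

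Among markers of other testis cells, the Sertoli and Leydig lists were lowest in RS, as some members were, and the macrophage and peritubular lists were lowest in PAC. The 12 Sertoli cell markers, for the nurse cells of the tubule, summed to 62.1 to 146 CPM in PAC, 54.0 to 59.7 in RS and 416 to 491 in ES. Of the 11 tested, 10 were lower in RS than PAC and 11 higher in ES than RS, and Fshr was at 0 in all RS libraries. The 7 Leydig cell markers summed to 91.5 to 124 CPM in PAC, 1.86 to 2.19 in RS and 18.6 to 24.5 in ES, all 7 lower in RS than PAC and higher in ES than RS. The 13 macrophage and blood markers summed to 8.25 to 9.51 CPM, 25.7 to 31.4 and 116 to 184, with 10 of 12 tested higher in RS than PAC, 8 higher in ES than RS and none lower at either step. For the 6 spermatogonia markers the sums were 18.4 to 21.1 CPM in PAC, 28.9 to 31.8 in RS and 24.6 to 33.4 in ES. Among these 6, 1 was higher and 3 lower in RS than PAC, and 4 were higher and 1 lower in ES than RS. The 8 peritubular and vascular markers summed to 5.44 to 6.91, 13.9 to 24.0 and 21.0 to 25.0 CPM. Of 6 tested, 4 were higher and 1 lower in RS than PAC, 2 were higher and 0 lower in ES than RS, and Col1a1 was at 0 in all PAC libraries. The part of such cells in the levels of Psma7, Psme1, Psme2, Psmg3, Psmb10 and the other members that were lowest in RS was not tested.

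**Figure D5:**
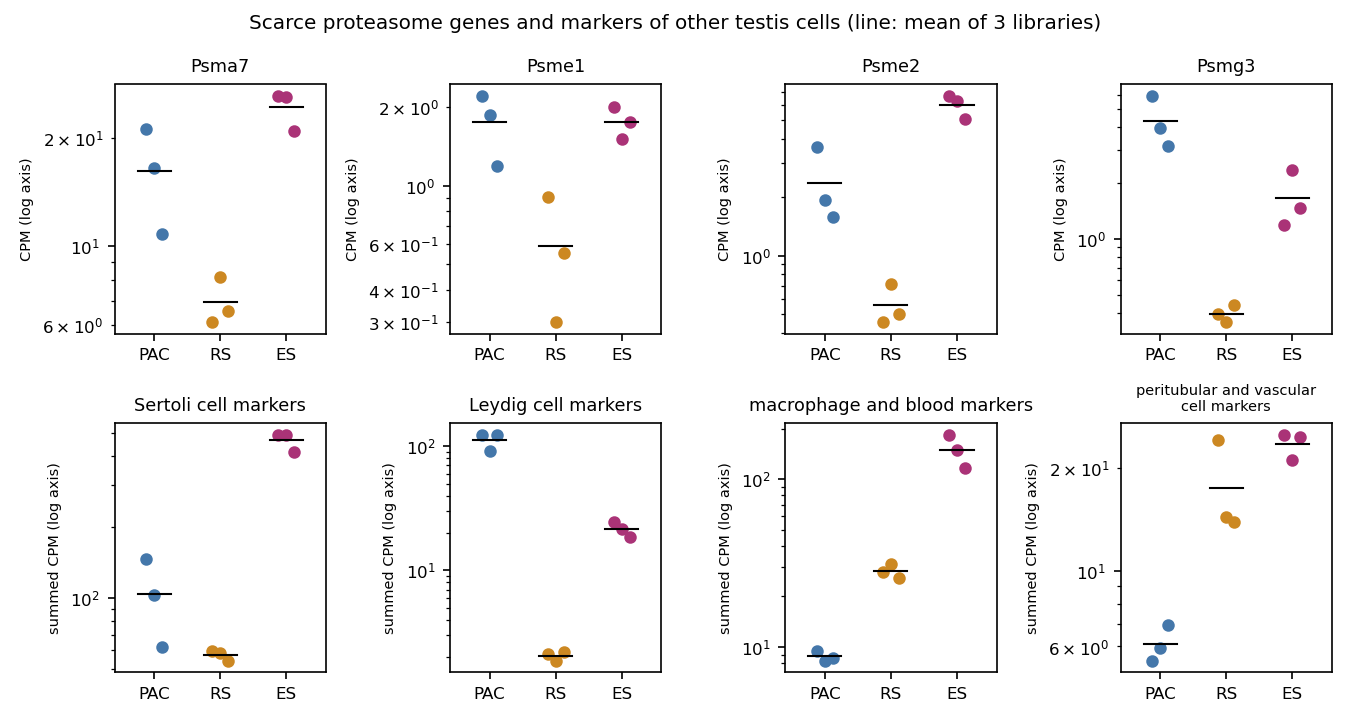
CPM of 4 members with their lowest level in RS (upper row) and summed CPM of 4 marker lists of other testis cells (lower row), by library, each on its own log axis with the mean as a line. The Sertoli and Leydig sums are lowest in RS like the 4 members, whereas the macrophage and peritubular sums are lowest in PAC.

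The interferon and antigen presentation genes, which are expressed with the immunoproteasome in immune cells, were compared as a list. Of 9 tested out of 11, 7 (77.8%) were lower and 1 (11.1%) higher in RS than PAC (median -1.34), where 46.9% of protein-coding genes were lower and 26.3% higher. In ES against RS 4 (44.4%) were higher and 0 lower, where 31.8% of protein-coding genes were higher and 21.7% lower, and in ES against PAC 5 (55.6%) were lower and 1 (11.1%) higher, where 42.6% were lower and 25.2% higher. Nlrc5, an activator of class I genes, was the gene that went up, from 2.67, 3.72 and 2.77 CPM in PAC to 12.4, 11.3 and 15.6 CPM in RS (2.10 ± 0.22, adjusted p = 9.14e-06). Tap1 and Tap2, which lie beside Psmb8 and Psmb9 on chromosome 17, had too few counts to be tested.

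Other genes of the ubiquitin and proteasome pathway were read from a list of 36, of which 35 were found and tested. In RS against PAC 16 (45.7%) were lower and 9 (25.7%) higher (median -0.45), near the 46.9%, 26.3% and median of -0.46 of all protein-coding genes. In ES against RS 16 (45.7%) were higher and 3 (8.57%) lower (median 0.46), against 31.8%, 21.7% and a median of 0.18. In ES against PAC 11 (31.4%) were higher and 15 (42.9%) lower, against 25.2% and 42.6%. Of 13 associated subunits and factors, 8 (61.5%) were lower in RS than PAC and 0 higher, against the same 46.9% and 26.3%. Zfand2a, an arsenite-inducible proteasome-associated factor, had the largest fall, from 9.85, 10.95 and 9.61 CPM in PAC to 1.23, 1.17 and 1.84 CPM in RS (-2.84 ± 0.23, adjusted p = 1.37e-06). Ddi2, the protease that activates the proteasome transcription factor Nfe2l1, followed with 20.7, 19.5 and 25.3 CPM in PAC and 3.85, 3.68 and 3.38 CPM in RS (-2.58 ± 0.24, adjusted p = 3.78e-06). Both genes had no overlap between PAC and RS. Nfe2l1 itself, named after its values were seen, was lower as well (-1.27 ± 0.15, adjusted p = 2.09e-05). The other genes listed with Ddi2 and Nfe2l1, Ngly1 and Nfe2l2, went the opposite way and were also named after their values were seen. From PAC to RS, Ngly1 changed by 0.99 ± 0.14 (adjusted p = 9.2e-05) and Nfe2l2 by 0.81 ± 0.26 (adjusted p = 0.0143). Sem1, a small lid-associated subunit gene, did not pass from PAC to RS (0.31) but fell the most of the list from RS to ES, from 105, 106 and 93.98 CPM to 46.97, 42.6 and 39.8 CPM (-1.24 ± 0.14, adjusted p = 4.26e-05).

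The shuttle factors, which carry ubiquitinated proteins to the proteasome, included the largest rises. Of 9, 4 (44.4%) were higher and 2 (22.2%) lower in RS than PAC, where 26.3% and 46.9% of protein-coding genes were, and 5 (55.6%) were higher and 1 (11.1%) lower in ES than RS, against 31.8% and 21.7%. Ubqlnl, of the ubiquilin family, was at 6.93, 13.9 and 17.03 CPM in PAC, 74.6, 74.9 and 91.7 CPM in RS and 315, 337 and 482 CPM in ES (2.67 ± 0.30 and 2.23 ± 0.29, adjusted p = 2.39e-05 and 0.000155). Ddi1, of a family of shuttle factors with a protease domain, rose from 109.8, 126 and 110.0 CPM in PAC to 489, 501 and 474 CPM in RS (2.08 ± 0.21, adjusted p = 6.86e-06). The X-linked Ubqln2 rose from 0.301, 0.136 and 0.175 CPM in RS to 1.03, 3.59 and 3.36 CPM in ES (3.69 ± 0.56, adjusted p = 0.00028). The widely expressed Ubqln1 was lower in ES (117, 137 and 128 CPM against 232, 225 and 218 CPM in RS, -0.82 ± 0.12, adjusted p = 0.000266).

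Among genes that encode ubiquitin itself, Ubb passed in no comparison of the fit reported here, at 1674 ± 174 CPM in PAC, 1673 ± 114 in RS and 1629 ± 149 in ES (SD, n = 3). Rps27a, which encodes ubiquitin fused to a ribosomal protein, fell from 344, 251 and 203 CPM in PAC to 54.6, 63.4 and 65.8 CPM in RS (-2.12 ± 0.20, adjusted p = 3.56e-06).

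Promoter sequence was read for the members because many moved in the same direction. RefSeq promoters (GRCm38.p6) were matched for 42 of 50 members, including all 5 that were higher in RS and 25 of the 31 that were lower. The 100 bases before the 5′-most annotated start are given for 3 members that were higher in RS than PAC (Psma6, Psmd10 and Psme3) and for 3 that were lower (Psma2, Psmd14 and Psmb5). Capitals mark a CCAAT box or an antioxidant response element (ARE, the site of Nfe2l1 and Nfe2l2) on either strand.
Psma6, chr12:55384122-55384221, strand +: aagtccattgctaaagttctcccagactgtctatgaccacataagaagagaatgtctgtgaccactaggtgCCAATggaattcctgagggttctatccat
Psmd10, chrX:140956712-140956811, strand -: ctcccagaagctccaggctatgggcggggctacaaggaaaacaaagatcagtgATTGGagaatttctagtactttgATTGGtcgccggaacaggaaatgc
Psme3, chr11:101316113-101316212, strand +: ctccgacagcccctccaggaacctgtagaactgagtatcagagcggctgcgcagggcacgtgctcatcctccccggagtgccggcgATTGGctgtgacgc
Psma2, chr13:14613142-14613241, strand +: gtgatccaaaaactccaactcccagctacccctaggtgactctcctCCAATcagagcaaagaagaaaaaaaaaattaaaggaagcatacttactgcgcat
Psmd14, chr2:61711594-61711693, strand +: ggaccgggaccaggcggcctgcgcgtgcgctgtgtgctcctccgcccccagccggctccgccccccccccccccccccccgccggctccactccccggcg
Psmb5, chr14:54617996-54618095, strand -: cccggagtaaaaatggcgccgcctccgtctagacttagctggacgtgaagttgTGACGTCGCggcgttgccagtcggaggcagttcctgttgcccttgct

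The higher members Psma6, Psmd10 and Psme3 and the lower member Psma2 carry CCAAT or its reverse complement ATTGG in these windows, Psmb5 carries an ARE match, and Psmd14 has neither. Windows of the same length for the higher member Psme4 and the lower member Psmd1, not printed here, also have neither. In the 250 bases before the start, searched on both strands, TGACNNNGC was found in 11.9% of the 42 members (5) and in 10.1% of all 27025 promoters of the table. CCAAT was found in 35.7% of members and 34.5% of all promoters, and in 3 of 5 higher and 8 of 25 lower members. TGACGTCA, the cyclic AMP response element, was found in 0 of 42 members and in 1.60% of all promoters. Matches are descriptions of letters in a window and were not tested for binding, and the share of members with each of these motifs was near the share over all promoters for the ARE and CCAAT.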

How the data were processed

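RNA-seq counts of 9 libraries, 3 per cell type by the labels' titles, were analysed. HISAT2, StringTie and the build GRCm38.p6 are named in the submitters' processing notes, without versions or parameters. The deposited counts are estimated counts per feature: 18.85% of them are not whole, and all were rounded for the tests. The authors also deposited FPKM values, whose lengths and totals are not stated. FPKM was used for shares, for levels between genes and for limma-trend alternatives on log2(FPKM + 0.1) and log2(FPKM + 1), a scale that understates the change of low genes.

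Features were kept with filterByExpr of edgeR (minimum count 10), which left 26030 of 50493. Libraries were scaled by TMM, and pairs of cell types were tested by the quasi-likelihood method of edgeR (robust, two-sided, all 9 libraries in a single fit), with Benjamini-Hochberg adjustment over the 26030 features. The fit was tested on simulated data. Shares were compared by exact permutation over 15 contrasts. The floor of 3 counts covers counting error only. The members, gene lists and markers were chosen with earlier results of these data known. Named in full were the isoform pairs, alternative and catalytic beta subunits, activators, inhibitor and chaperones, and the called member with the largest rise and fall in each remaining class. From the pathway list, the 2 largest called rises and falls of each step and ubiquitin genes were named, and some genes under these rules are not reported here. Members named beyond this rule were chosen after their values were seen. Alternatives were RLE, upper-quartile and no scaling factors, DESeq2, no filter or a minimum of 50, a replicate block, 2 cell types alone, protein-coding genes alone, FPKM and leaving out each library. Software was Python 3.11.15 with scipy 1.17.1, pandas 2.3.3 and matplotlib 3.10.9, and R 4.3.3 with DESeq2 1.42.0, limma 3.58.1 and edgeR 4.0.16.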

Additional observations from a re-analysis of the deposited data

How the results depend on the processing

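In RS against PAC, 20 of 31 lower and 4 of 5 higher calls kept their direction and passed under every alternative testing the gene. In ES against RS this held for 6 of 10 lower and 5 of 12 higher calls. In ES against PAC it held for 27 of 33 lower and 4 of 7 higher calls. Psmb10 and Psme1 were tested in 20 of the 21 alternatives, and the other called members in all 21. With protein-coding genes alone, 20 members were lower in RS than PAC, and 17 were lower in ES than RS. With total counts alone, 6 members were higher and 18 lower in ES than RS, and 4 were higher in ES than PAC. With FPKM plus 0.1, FPKM plus 1 or FPKM plus 0.1 with no filter, 5 were higher and 18 lower in ES than RS, and 4 were higher in ES than PAC. With no filter on low counts, 7 were higher in ES than RS. Leaving out 1 library gave 7 to 11 members higher in ES than RS, with 7 when PAC 2, RS 1, RS 2 or ES 2 was left out. The cause of these shifts was not tested. DESeq2, RLE and upper-quartile factors, a minimum count of 50 and a fit of 2 cell types alone left every count of members within 1.5 times. Among called members the sign turned only for Psmc6 in RS against PAC, with protein-coding genes alone (0.0023 against -0.39, adjusted p = 0.99001). Of 838 alternative values for member comparisons that had not passed, 104 had the other sign and 0 of these passed. Others passed with the same sign. Those of Psmb5 and Psmd2 in ES against RS did so in 11 and 10 of 21 alternatives, and that of Psmc2 in ES against PAC in 9.

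The Psmb9 share of Psmb6 and Psmb9 turned its direction when 1 library was left out: its difference ran from -0.0189 to 0.0223 percentage points for RS minus PAC, from -0.0223 to 0.134 for ES minus RS and from -0.0189 to 0.138 for ES minus PAC. It rests on at most 3 counts in a library. With the replicate number as a block, 5 members were higher and 31 lower in RS than PAC, 11 higher and 12 lower in ES than RS, and 8 higher and 33 lower in ES than PAC. Correlations of deviations between libraries of the same number ran from -0.04 to 0.273, and between those of unlike number from -0.254 to 0.094. The highest were between ES 3 and PAC 3 (0.273) and between ES 1 and PAC 1 (0.185). Whether libraries of the same number share an origin was not tested, and the fit reported here left the number out. Among named calls, the block ended only that of Psmb10 in ES against RS. At this depth Psmb8, Psmb9, Psmb11 and Psme2b did not pass the filter on low counts, and no fold change was computed for them.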
